A study of Homo sapiens with 2 samples.

Results

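The genes described here are the splicing factor genes of the HNRNP, SRSF, SNRP and SF3 families in NB4 cells after knockdown of the long non-coding RNA CRNDE. They were chosen by gene symbol alone: HNRNP, SRSF or SNRP followed by a letter or number code, and SF3A or SF3B followed by a number. Pseudogenes of these genes were left out and are described beside their parent genes. The rule took 51 of the 11619 listed genes, which were 21 HNRNP, 11 SRSF, 11 SNRP and 8 SF3 genes.

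NB4 is a human cell line of acute promyelocytic leukemia that carries the PML/RARα fusion. One library came from NB4 cells infected with a lentivirus for an shRNA against CRNDE (sh-CRNDE) and the other from NB4 cells infected with a lentivirus for a non-targeting shRNA (sh-Control), and total RNA was taken on day 3 in both. Stable lines were selected by the fluorescent protein ZsGreen1, and the labels do not say which CRNDE shRNA the sequenced cells carried. With 1 library in each group, differences below have no replicate check, no p-value is given, and neither the spread within a group nor an overlap of groups can be read.

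The values were FPKM, a fragment count divided by transcript length and by the number of mapped fragments, which can be compared between genes as levels per length. The change of a gene is the difference of log2(FPKM + 1) between sh-CRNDE and sh-Control, positive where sh-CRNDE had the higher value, and the pseudocount of 1 makes the change of low genes smaller than their ratio. A change past 1.5-fold is one beyond 0.585 in either direction. How deeply either library was sequenced is unknown, because FPKM carries no read counts. The targeted gene CRNDE was at 1.85 FPKM in sh-CRNDE and 5.92 FPKM in sh-Control, a change of -1.28, and the housekeeping gene GAPDH was at 785 and 942 FPKM. Of 8 promyelocyte markers 7 were listed (ELANE is not analysed here), with summed levels of 841 FPKM in sh-CRNDE and 1433 FPKM in sh-Control, of which the myeloperoxidase gene MPO made up 738 and 1135 FPKM. CEBPE, another of them, stood opposite at 8.75 and 0.748 FPKM, and 3 of 8 markers of other lineages were listed, each between 0.569 and 4.82 FPKM. In these bulk samples, fewer cells of a type and less RNA per cell cannot be told apart. Over all genes FPKM added up to 170373 in sh-CRNDE against 141217 in sh-Control, and MT-RNR2, a mitochondrial rRNA gene, had 27614 FPKM in the former and 0 in the latter.

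Introns are removed from pre-mRNA by the spliceosome, which is built from small nuclear ribonucleoproteins (snRNPs) named after their U1, U2, U4, U5 and U6 RNAs. SNRP genes encode proteins of these particles, among them the ring of Sm proteins that encircles the snRNA, and SF3A and SF3B proteins are parts of the U2 snRNP that hold it at the branch point. SRSF genes encode SR proteins, which carry an arginine and serine rich domain and in general favour the use of the exons they bind. HNRNP genes encode abundant nuclear proteins that coat nascent transcripts and often work against the use of nearby splice sites. Several of these proteins, SRSF2 and SF3B1 among them, are known from recurrent mutations in myeloid disease.

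HNRNPA1 and its copies are described first, because the listed level of a copy was above that of the gene in sh-CRNDE. HNRNPA1 (ENSG00000135486, chr12:54280193-54287088, plus strand, GRCh38) encodes one of the most abundant hnRNP proteins, which binds splicing silencers. Copies of its spliced mRNA stand elsewhere in the genome, most of the listed ones in a single exon. Of the listed copies, 3 were compared with the coding sequence of HNRNPA1 in GENCODE release 44. The first copy, HNRNPA1P7, is a processed pseudogene at chr18:32412214-32413176 on the minus strand. HNRNPA1L2 is a single-exon gene at chr13:52642431-52643773 on the plus strand. HNRNPA1P48, which GENCODE now lists as protein-coding and with 2 exons, lies at chr16:51553436-51647132 on the plus strand. Over the 960 coding bases compared, HNRNPA1P7 was 99.1% identical to HNRNPA1, with 1 unbroken identical run of 652 bases. HNRNPA1L2 differed at 15 bases and HNRNPA1P48 at 6 bases. A sequenced fragment that falls within an identical run fits the parent gene and the copy equally well.

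Across the 51 genes, levels differed little between the libraries. In sh-CRNDE 34 of the genes (66.7%) were higher and 17 lower, against 49.2% higher among all listed genes. The median change was 0.11, beside a median of -0.01 over all listed genes and 0.03 over the 3004 genes whose mean was 10 FPKM or more. It was 0.05 with the median change of genes of like GC content taken off, a median drawn from genes at 1 FPKM or more in both libraries. Of the 51 genes, 29 (56.9%) changed by no more than 1.2-fold in either direction, against 52.5% of all listed genes. Past 1.5-fold and higher in sh-CRNDE were 3 genes, SRSF8, SNRPA and HNRNPC, which is 5.88% of the 51 against 8.38% of all listed genes. Past 1.5-fold and lower were 2 genes, SF3A2 and SF3B4, which is 3.92% against 8.83%. No share of these genes past 1.5-fold was above its background. Past 2-fold was SRSF8 alone, higher in sh-CRNDE, against backgrounds of 3.43% of all listed genes higher and 3.23% lower. SRSF8 was listed at 0 in sh-Control, so its place in these counts rests on that 0. Among the 50 genes above 0 in both libraries, 2 (4%) were past 1.5-fold higher and 2 (4%) lower, and none was past 2-fold.

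These genes were highly expressed compared with the rest, with a median of 33.9 FPKM in sh-CRNDE and 32.6 FPKM in sh-Control against 3.89 and 3.95 FPKM over all listed genes. Their summed level was 2452 FPKM in sh-CRNDE and 2263 FPKM in sh-Control, or 1.72% of all FPKM without MT-RNR2 and 1.60%. Among the 47 of them whose mean was 10 FPKM or more, 2 were past 1.5-fold higher and 1 lower. The backgrounds at that level were 8.19% of genes higher and 8.22% lower, and 27 of the 47 genes (57.4%) were within 1.2-fold against 52.8% of genes at that level. The order of levels was close in both libraries, with a Spearman correlation of log2(FPKM + 1) of 0.94 across the 50 genes above 0 in both, which share their libraries and are not replicates. HNRNPA2B1 was the highest gene in sh-CRNDE at 187 FPKM, and SNRPB was the highest in sh-Control at 185 FPKM. HNRNPLL was the lowest gene above 0 in both, at 5.94 and 6.36 FPKM.

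**Figure D1:**
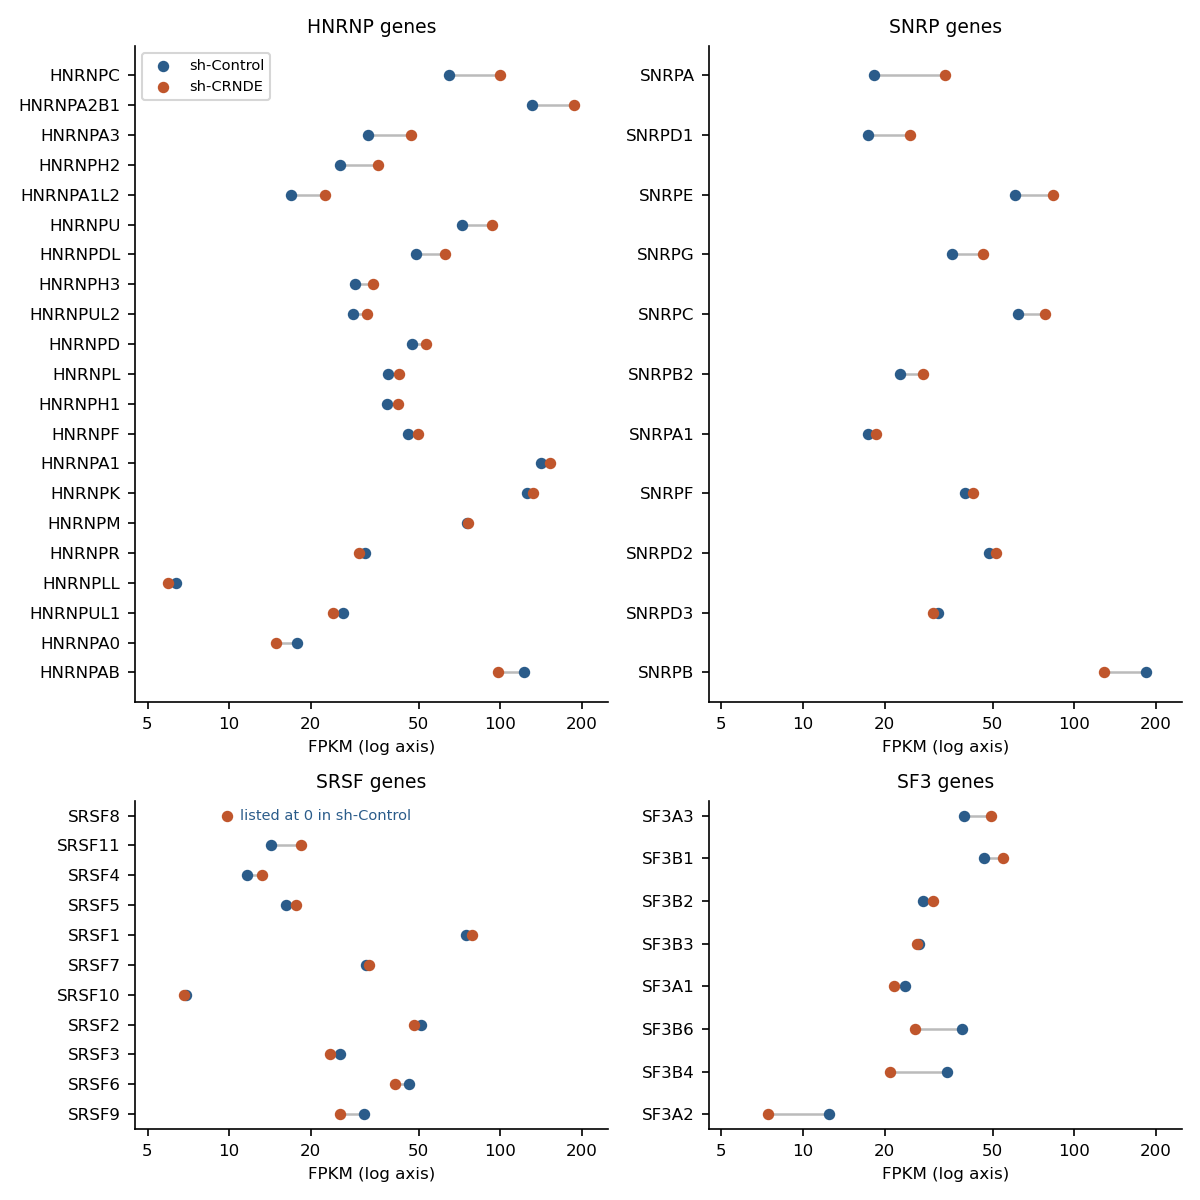
FPKM of each of the 51 genes (log axis) in sh-Control (blue) and sh-CRNDE (orange), in 4 panels by family and ordered by change, with 1 library per point. Most pairs of points lie close together; the pairs furthest apart are SNRPA at 33.3 and 18.3 FPKM and SF3A2 at 7.41 and 12.4 FPKM, and SRSF8 has no blue point because it is listed at 0 in sh-Control.

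Among the HNRNP genes, 16 of 21 were higher in sh-CRNDE and 5 lower, with a median change of 0.13 (0.06 after the subtraction for GC content), and their summed level was 1334 FPKM against 1166 FPKM. HNRNPC was the only one past 1.5-fold. HNRNPC (ENSG00000092199, chr14:21209136-21269494, minus strand) encodes a protein that binds uridine tracts and packages nascent transcripts. It was at 99.9 FPKM in sh-CRNDE and 64.7 FPKM in sh-Control, a change of 0.62 that lies just past the threshold of 0.585. After the subtraction for GC content, HNRNPC was at 0.46 and no longer past 1.5-fold.

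Its processed pseudogene HNRNPCP2 was at 34.9 FPKM in sh-CRNDE and 20.1 FPKM in sh-Control, a change of 0.76, and 14.3% of the 50-base words of the canonical HNRNPC transcript also stand in it. The pair moved the same way, and their sum of FPKM, not weighted by length, changed by 0.66.

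The closest HNRNP genes on the inner side of the threshold were HNRNPA2B1 and HNRNPA3, which encode relatives of hnRNP A1. HNRNPA2B1 was at 187 FPKM in sh-CRNDE and 131 FPKM in sh-Control, a change of 0.52. No 50-base word of its transcript stands in another gene. On the opposite strand its locus overlaps that of CBX3, a heterochromatin protein gene, whose change was also 0.52, at 72.9 and 50.5 FPKM. HNRNPA3 was at 46.7 and 32.6 FPKM, a change of 0.50, and its pseudogene HNRNPA3P3 was low in both libraries, at 1.38 and 0.719 FPKM.

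HNRNPA1 itself, the second-highest HNRNP gene in sh-CRNDE, was at 153 FPKM there and at 141 FPKM in sh-Control, a change of 0.11. Its pseudogene HNRNPA1P7 had 265 FPKM in sh-CRNDE and was listed at 0 in the control, so that in sh-CRNDE the listed level of the copy was above that of the gene. The other copies were far lower. HNRNPA1L2 was at 22.5 FPKM in sh-CRNDE and 16.8 FPKM in sh-Control, and HNRNPA1P48 was at 21.0 and 16.8 FPKM. Of the 50-base words of the canonical HNRNPA1 transcript, 32.7% also stand in other genes, 56 of them in all. Summed with its 4 listed pseudogenes, HNRNPA1 was at 441 FPKM in sh-CRNDE and 159 FPKM in sh-Control, a change of 1.46 in place of 0.11, and after quantile normalization the change of the gene alone was -0.04. The change of HNRNPA1 therefore depends on where the fragments of its copies are counted, and it is uncertain. HNRNPA1L2, all of whose 50-base words stand in other genes, is uncertain in the same way. Large shares of such words were not particular to these genes. They were 41.6% for SNRPA1, 37.4% for HNRNPL, 29.3% for SRSF1 and 24.2% for SNRPG, and how their shared fragments were counted is not known.

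**Figure D2:**
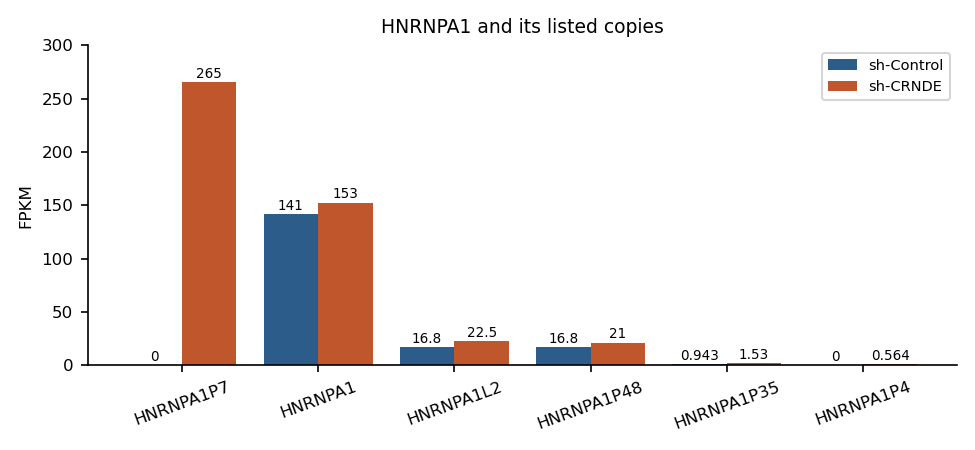
FPKM (linear axis from 0) of HNRNPA1, HNRNPA1L2 and the 4 listed HNRNPA1 pseudogenes in sh-Control (blue) and sh-CRNDE (orange), 1 library per bar. HNRNPA1P7 has 265 FPKM in sh-CRNDE and is listed at 0 in the control, while HNRNPA1 stands at 153 and 141 FPKM.

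The remaining HNRNP genes follow by what their proteins bind. Of the G-run binding proteins, HNRNPH2 was at 35.4 FPKM in sh-CRNDE and 25.6 FPKM in sh-Control (0.45), HNRNPH3 at 33.9 and 29.2 FPKM (0.21), HNRNPH1 at 41.9 and 38.2 FPKM (0.13) and HNRNPF at 49.6 and 45.7 FPKM (0.12). All of these were higher in sh-CRNDE. The HNRNPH2 locus shares its strand with the readthrough RPL36A-HNRNPH2, which was listed at 0 in sh-CRNDE and at 1.21 FPKM in sh-Control.

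HNRNPU, a scaffold attachment factor bound to chromatin, was at 93.0 and 72.0 FPKM (0.36). Its relative HNRNPUL2 was at 32.4 and 28.5 FPKM (0.18), with 45.3% of its 50-base words shared with the readthrough HNRNPUL2-BSCL2, at 0.127 and 1.44 FPKM. HNRNPUL1 was at 24.1 and 26.4 FPKM (-0.13). The HNRNPU relatives thus did not share a direction.

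Among proteins of AU-rich elements, HNRNPDL was at 62.4 and 49.1 FPKM (0.34) and HNRNPD at 53.1 and 47.2 FPKM (0.17). HNRNPA0, a single-exon gene of the same kind, was at 14.8 and 17.8 FPKM (-0.25). HNRNPAB, an A/B-type protein, was at 98.0 FPKM in sh-CRNDE and 122 FPKM in sh-Control, and its change of -0.32 was the lowest of the family. Near 0, with a sign that depended on the scaling for HNRNPK and HNRNPM, were the poly(C) binding HNRNPK at 132 and 125 FPKM (0.07), HNRNPM at 76.1 and 75.5 FPKM (0.01) and HNRNPR at 30.3 and 31.7 FPKM (-0.07). The CA-repeat binding HNRNPL was at 42.3 and 38.4 FPKM (0.13), its pseudogene HNRNPLP2 at 1.11 and 0 FPKM, and its paralog HNRNPLL at 5.94 and 6.36 FPKM (-0.08).

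Of the SRSF genes, 6 of 11 were higher and 5 lower in sh-CRNDE, with a median change of 0.03, which became -0.11 after the same subtraction for GC content, where SRSF1 and SRSF7 changed sign as well. Of the 11 genes, 8 were within 1.2-fold. Their summed level was 315 FPKM in sh-CRNDE and 310 FPKM in sh-Control.

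SRSF8 (ENSG00000263465, chr11:95066919-95071225, plus strand) is a single-exon SR protein gene. It had 9.79 FPKM in sh-CRNDE and was listed at 0 in the control, so no fold is given. Its change of 3.43 is set by the pseudocount and was 6.63 with a pseudocount of 0.1. The other single-exon genes among the 51, HNRNPA0 and HNRNPA1L2, were above 0 in both libraries. Of the 50-base words of SRSF8, 3.76% stand in other genes.

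SRSF1, the founding SR protein, was the highest of the family at 78.4 FPKM in sh-CRNDE and 74.7 FPKM in sh-Control (0.07). SRSF2, which binds exonic enhancers, was at 48.2 and 51.0 FPKM (-0.08). SRSF11 was at 18.4 and 14.2 FPKM (0.35), the only SRSF gene besides SRSF8 that was higher by more than 1.2-fold. SRSF9, a short relative of SRSF1, was at 25.7 and 31.5 FPKM (-0.28) and was the only one lower by more than that. Its locus overlaps that of DYNLL1 on the opposite strand, a dynein light chain gene at 46.0 and 16.9 FPKM, and the library kit is not stated to keep the strand.

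The shuttling SR protein genes SRSF3 and SRSF7 were at 23.6 and 25.6 FPKM (-0.11) and at 32.9 and 32.1 FPKM (0.03). SRSF4 was at 13.2 and 11.7 FPKM (0.17), SRSF5 at 17.6 and 16.2 FPKM (0.12) and SRSF6 at 40.8 and 46.2 FPKM (-0.18), so these closely related genes stood on both sides of 0. SRSF10, a splicing repressor when dephosphorylated, was at 6.79 and 6.92 FPKM (-0.03) and was the lowest SRSF gene above 0 in both libraries.

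The SNRP genes had the highest median change of the 4 families, 0.28 (0.17 after the subtraction for GC content), with 9 of 11 higher in sh-CRNDE and 2 lower. They encode proteins of the U1 snRNP, the U2 snRNP and the Sm ring, and the differences were not even across these particles.

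Both genes for proteins of the U1 snRNP, which pairs with the start of the intron, were higher in sh-CRNDE. SNRPA (ENSG00000077312, chr19:40750637-40765389, plus strand) encodes the U1 protein A, which binds a stem-loop of U1 RNA. It was at 33.3 FPKM in sh-CRNDE and 18.3 FPKM in sh-Control, a change of 0.83, and 95.4% of all listed genes had a lower change. None of its 50-base words stands in another gene, and it stayed past 1.5-fold under each pseudocount, scaling and filter tried, with a change of 1.03 after subtraction for GC content. Its locus overlaps that of C19orf54 on the opposite strand, at 1.21 and 1.51 FPKM, which the word search on transcript sequences does not cover. SNRPC, which encodes the U1 protein C and steadies the pairing with the splice site, was at 78.4 and 62.0 FPKM (0.33). SNRNP70, the gene of the third U1 protein, is outside the symbol rule and was at 23.7 and 25.6 FPKM (-0.11). The U2 snRNP genes SNRPB2 and SNRPA1 were at 27.8 and 22.7 FPKM (0.28) and at 18.6 and 17.3 FPKM (0.10).

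The 7 listed genes of the Sm ring had a median change of 0.09, and their summed level was 408 FPKM in sh-CRNDE and 418 FPKM in sh-Control. One protein of each kind sits in the ring, yet the transcripts differed in direction. SNRPD1 was at 24.8 FPKM in sh-CRNDE and 17.3 FPKM in sh-Control (0.49), SNRPE at 83.6 and 60.7 FPKM (0.46) and SNRPG at 46.2 and 35.6 FPKM (0.37). SNRPF at 42.5 and 39.7 FPKM (0.09), SNRPD2 at 51.5 and 48.4 FPKM (0.09) and SNRPD3 at 30.1 and 31.5 FPKM (-0.06) were near 0. SNRPB (ENSG00000125835, chr20:2461634-2470853, minus strand), which encodes SmB and SmB′, stood on the other side. It was at 129 FPKM in sh-CRNDE and 185 FPKM in sh-Control, a change of -0.51. After the subtraction for GC content SNRPB was at -0.32, SNRPD1 at 0.34, SNRPE at 0.28 and SNRPG at 0.21. The ratios that follow carry no such subtraction. SNRPB was the highest Sm gene and SNRPD1 the lowest in both libraries, and SNRPB exceeded SNRPD1 by a ratio of 5.19 in sh-CRNDE but of 10.6 in sh-Control. Both genes took part in this difference, since SNRPB was lower in sh-CRNDE (a ratio of 0.699 to sh-Control) and SNRPD1 higher (1.43). Without SNRPB, the ratio of the highest to the lowest Sm gene, SNRPE to SNRPD1, was 3.37 in sh-CRNDE against 3.50. SNRPN, the paralog of SNRPB, is not analysed here. The pseudogenes SNRPEP4, at 10.5 and 5.96 FPKM, and SNRPGP14, at 1.04 and 0.521 FPKM, were higher in sh-CRNDE like their parents. Adding their FPKM, not weighted by length, moved SNRPE to 0.49 and SNRPG to 0.38.

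**Figure D3:**
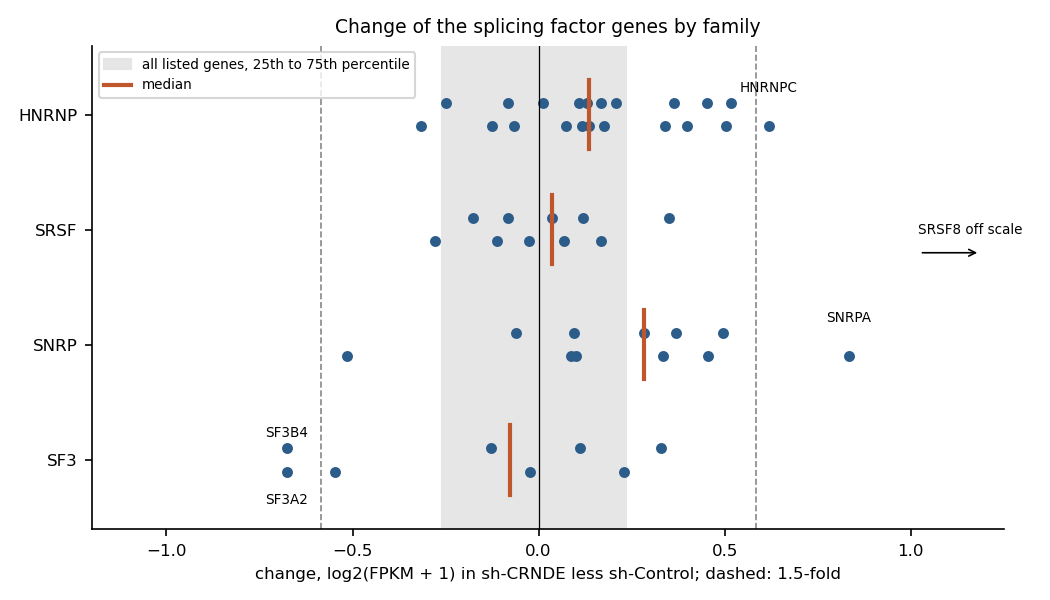
Change of each gene on the log2(FPKM + 1) scale (points) by family, with the family median (orange), the 25th to 75th percentile of all 11619 listed genes (grey) and the 1.5-fold threshold (dashed). Medians run from -0.08 (SF3) over 0.03 (SRSF, -0.11 after subtraction for GC content) and 0.13 (HNRNP) to 0.28 (SNRP), and SRSF8 at 3.43 lies off the scale.

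The SF3 genes had a median change of -0.08, with 3 of 8 higher and 5 lower in sh-CRNDE. The 2 genes past 1.5-fold lower among the 51 were both SF3 genes (25% of the family, against 8.83% of all listed genes), and both fell short of the threshold after the subtraction for GC content. SF3A2 (ENSG00000104897, chr19:2236824-2248655, plus strand) encodes SF3a66, a subunit of SF3A. It was at 7.41 FPKM in sh-CRNDE and 12.4 FPKM in sh-Control, a change of -0.68. SF3B4 (ENSG00000143368, chr1:149923317-149927803, minus strand) encodes SF3b49, which binds pre-mRNA upstream of the branch point. It was at 20.9 and 34.0 FPKM, also a change of -0.68. After that subtraction SF3A2 was at -0.30 and SF3B4 at -0.56.

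SF3B6, which encodes the subunit that contacts the branch point adenosine, lay just inside the threshold, at 26.0 FPKM in sh-CRNDE and 38.5 FPKM in sh-Control, a change of -0.55 that became -0.72 after that subtraction. On the other side, SF3A3 was at 49.4 and 39.1 FPKM (0.33) and SF3B1, the large subunit that encloses the branch helix, at 54.8 and 46.6 FPKM (0.23). SF3B2 at 30.1 and 27.8 FPKM (0.11), SF3B3 at 26.3 and 26.8 FPKM (-0.02) and SF3A1 at 21.7 and 23.8 FPKM (-0.13) were within 1.2-fold. The subunit genes of both complexes within the symbol rule were spread wider in sh-CRNDE. The ratios carry no subtraction for GC content, after which SF3A2 and SF3B4, the lowest genes in sh-CRNDE, were no longer past 1.5-fold. PHF5A, an SF3B subunit at 25.4 and 24.6 FPKM, is outside the rule, and SF3B5 is not analysed here. In SF3A, SF3A3 was the highest and SF3A2 the lowest gene in both libraries, with a ratio of 6.66 in sh-CRNDE and 3.14 in sh-Control. In SF3B, the ratio of the highest to the lowest gene was 2.62 in sh-CRNDE, where SF3B4 was lowest, and 1.74 in sh-Control, where SF3B3 was lowest.

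The GC content of the transcripts moved with the change. Across the 50 genes above 0 in both libraries, the change and the GC content of the canonical transcript had a Pearson correlation of -0.36 and a Spearman correlation of -0.25, and over 11197 annotated genes the values were -0.30 and -0.41. The points share their libraries, and genes are not independent replicates. Below 42% GC, 14 of 21 splicing factor genes (66.7%) were higher in sh-CRNDE against 70.9% of all listed genes of that GC content, with a median change of 0.21 against 0.16. Between 42% and 50%, 13 of 16 (81.2%) were higher against 59.1%, with a median of 0.13 against 0.06. At 50% and above, 7 of 14 (50%) were higher against 30.2%, with a median of -0.06 against -0.16.

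SF3A2 had the highest GC content of the 51 genes, 66.5%, and SNRPB and SF3B4 were at 58.2% and 55.3%. SNRPA, with 57.9%, stood among these with a change of the opposite sign, and SF3B6, with 39.2%, was low in GC and lower in sh-CRNDE. The part of GC content in these differences was not tested.

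Other genes of the splicing machinery were described in 7 lists with 147 gene identifiers. Of these, 16 (10.9%) were past 1.5-fold higher in sh-CRNDE and 6 (4.08%) lower, beside 8.38% and 8.83% of all listed genes, and their median change was 0.07. After the subtraction for GC content, the medians of the lists of the Prp19 complex (-0.0085), the minor spliceosome (-0.02) and the hnRNP-related regulators (0.02) turned sign. The lists surround the 51 genes in the splicing pathway, and they were read to see whether partners of the same particles moved alike.

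Partners of SNRPA and the SF3 genes, that is 15 genes of U1, U2 and U2 recruitment, had a median change of 0.21, with 12 higher and 3 lower. The only one past 1.5-fold (6.67% of the list, against 8.38% of all listed genes higher) was LUC7L3, a relative of a yeast U1 snRNP protein. LUC7L3 was at 23.2 FPKM in sh-CRNDE and 13.7 FPKM in sh-Control (0.71). PHF5A, a small SF3B subunit, was at 25.4 and 24.6 FPKM (0.04).

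Partners of the Sm ring showed no common direction. Of the 15 listed genes of Sm ring assembly, WDR77, which works with the methyltransferase PRMT5 on Sm proteins, was at 20.9 and 11.1 FPKM (0.86) and GEMIN8 at 2.33 and 0.985 FPKM (0.75). SMN1, the assembly factor lost in spinal muscular atrophy, was at 10.6 and 18.2 FPKM (-0.73), and its near-identical copy SMN2 was at 8.75 and 13.0 FPKM (-0.53), so the split between these copies is uncertain. Past 1.5-fold were 2 of the 15 genes (13.3%) higher and 1 (6.67%) lower, against 8.38% and 8.83% of all listed genes. The median change of this list was -0.09, and -0.20 after the subtraction for GC content, with 2 genes in place of 1 past 1.5-fold lower.

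Among 28 genes of the U4/U6.U5 tri-snRNP and the LSM ring, which replaces the Sm ring on U6 RNA, 4 (14.3%) were past 1.5-fold higher and 1 (3.57%) lower, against 8.38% and 8.83% of all listed genes. The median change was 0.10, or 0.02 after the subtraction for GC content. LSM4 was at 26.7 FPKM in sh-CRNDE and 9.59 FPKM in sh-Control (1.39), and LSM2 stood opposite at 11.99 and 27.8 FPKM (-1.15). PRPF38A, a factor of the spliceosome before activation, was at 19.4 and 7.41 FPKM (1.28), and WBP4 was at 7.34 and 3.40 FPKM (0.92). As in the Sm ring, genes of one ring thus differed in sign.

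Of 26 genes of the Prp19 complex and the catalytic step, 4 (15.4%) were past 1.5-fold higher and 1 (3.85%) lower, against 8.38% and 8.83% of all listed genes. The median was 0.08, or -0.0085 after the subtraction for GC content. PPIL1, a peptidyl-prolyl isomerase of the catalytic spliceosome, was at 7.93 and 30.2 FPKM (-1.80), the lowest change in the 7 lists. SNW1 was at 42.9 and 25.7 FPKM (0.72), PPIE at 6.20 and 3.48 FPKM (0.68) and CWC27 at 11.9 and 7.25 FPKM (0.65).

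Of 20 SR kinases and SR-related genes, which act on or with the SRSF proteins, 2 (10%) were past 1.5-fold higher and none lower. The shares of all listed genes were 8.38% and 8.83%. The median was 0.14 (0.09 after the subtraction for GC content). The count was 4 with a pseudocount of 0.1 or 0.01, and 1 after quantile normalization or the subtraction for GC content. The 2 genes were SAP18 at 44.0 and 20.5 FPKM (1.07) and TNPO3, the importer of SR proteins, at 33.8 and 21.8 FPKM (0.61). The hnRNP-related regulators, 34 identifiers, had a median of -0.04. Past 1.5-fold were 2 of them (5.88%) higher and 1 (2.94%) lower, against 8.38% and 8.83% of all listed genes. RBFOX2 was at 1.22 and 0.207 FPKM (0.88) and MBNL1 at 14.2 and 23.7 FPKM (-0.70). One of the 2 identifiers of MATR3 was at 26.1 and 14.3 FPKM (0.83) and the other at 35.9 and 34.4 FPKM (0.06), so the split between them is uncertain. The minor spliceosome removes a rare class of introns. Of its 9 genes, 1 (11.1%) was past 1.5-fold higher and 2 (22.2%) lower, against 8.38% and 8.83% of all listed genes. ZCRB1 was at 29.8 and 15.1 FPKM (0.93), PDCD7 at 6.97 and 15.2 FPKM (-1.02) and SNRNP35 at 0.166 and 1.48 FPKM (-1.09).

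**Figure D4:**
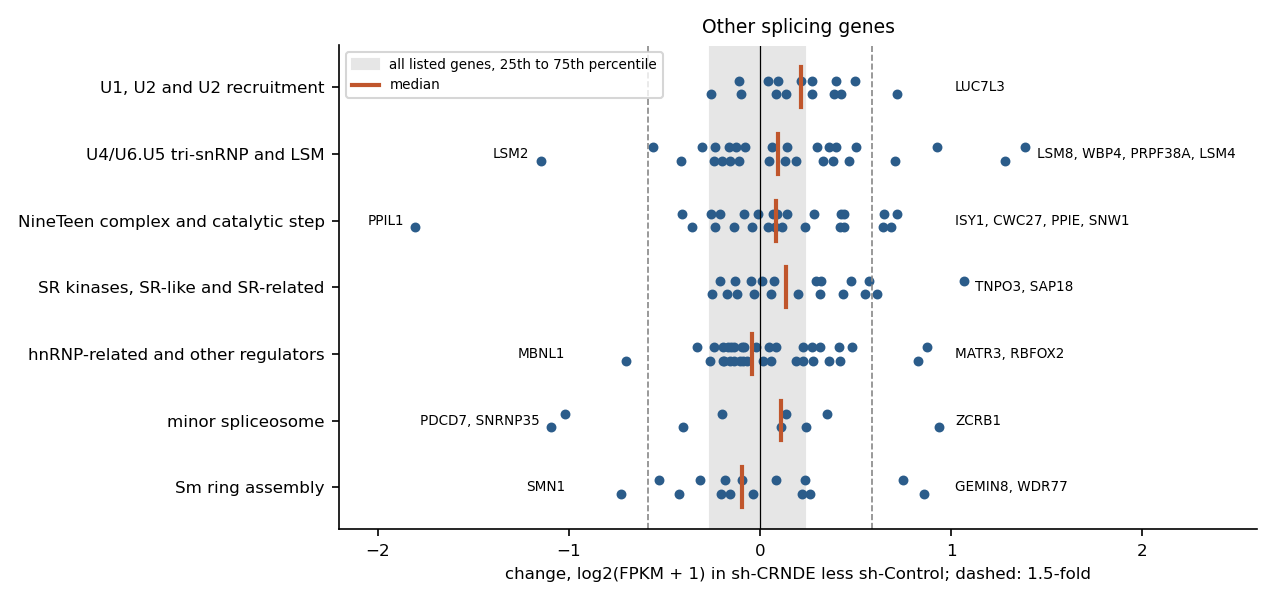
Change on the log2(FPKM + 1) scale of the genes in 7 lists of other splicing genes (points), with list medians (orange), the 25th to 75th percentile of all listed genes (grey) and the 1.5-fold threshold (dashed); genes past it are named on their side. PPIL1 at -1.80 and LSM4 at 1.39 are the ends of the range, and list medians run from -0.09 to 0.21.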

How the data were processed

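The authors deposited FPKM values per gene for the 2 libraries. Total RNA was extracted with the RNeasy kit and sequencing libraries were built with a TruSeq RNA kit. The submitters' processing notes name fastp 0.20.0, HISAT2 2.0.4, StringTie 1.2.3 and the build GRCh38, and the annotation release is not given in the sources used here. Each listed gene was above 0.5 FPKM in at least one library, so genes below that in both were not analysed here. Counts, depth and counting errors cannot be had from these values, and a listed 0 may be a failed estimate.

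The splicing factor genes were matched by symbol in both files and joined by Ensembl identifier. Changes were computed on log2(FPKM + 1) without further scaling, with no test, since there was 1 library per group. Of the identifiers, 11508 of 11619 matched GENCODE release 44, which gave coordinates, exon numbers and GC content of the canonical transcript. Shared sequence was measured as the share of the 50-base words of the canonical transcript that stand in any other GENCODE gene. The genes, the gene lists and the comparisons were chosen with earlier results of these data known. All 51 genes were given with their levels, and in each other list the genes past 1.5-fold were named, at most 4 by size of change. Genes named beyond these were chosen after their values were seen. They were CBX3, DYNLL1, C19orf54, the readthrough genes, and SNRNP70, PHF5A and SMN2, which are in the lists but not past 1.5-fold. The comparison with genes of at least 10 FPKM, the count within 1.2-fold and the Sm ring without SNRPB were chosen in the same way. The alternatives were a pseudocount of 0.1 or 0.01, centring, quantile normalization, rescaling to 1000000 without mitochondrial, ribosomal and small RNA genes, and subtraction for GC content. Others were at least 1 FPKM in both libraries, summing FPKM with pseudogenes, and a threshold of 2-fold. For GC content, the median change within each of 20 GC bins was taken from annotated genes at 1 FPKM or more in both libraries. Sums with pseudogenes were not weighted by transcript length. The computation was tested on simulated data with known folds. Python 3.11.15, numpy 2.4.6, pandas 2.3.3 and matplotlib 3.10.9 were used. The sequences of HNRNPA1 and its copies are not reported here.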

Additional observations from a re-analysis of the deposited data

How the results depend on the processing

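With 1 library per group and unknown depth, small differences cannot be told from counting error, and genes with near-identical copies depend on how shared fragments were assigned. Past 2-fold were 1 of the 51 genes higher, SRSF8 with its listed 0 in sh-Control, and 0 lower. After subtraction for GC content, 1 gene was past 1.5-fold lower, and the median changes were 0.05 for all 51 genes, 0.06 for HNRNP, -0.11 for SRSF, 0.17 for SNRP, -0.07 for SF3 and 0.03 for the lists of other splicing genes. HNRNPC (0.46), SF3B4 (-0.56) and SF3A2 (-0.30) were then no longer past 1.5-fold, and SF3B6 (-0.72) was. SNRPB was then at -0.32. Pseudocounts of 0.1 and 0.01 both gave medians of 0.12 for the 51 genes, 0.14 for HNRNP, 0.04 for SRSF, 0.29 for SNRP and 0.08 for the lists. Centring gave the same values and -0.07 for SF3. Quantile normalization gave 0.09 for the 51 genes, 0.10 for HNRNP, 0.27 for SNRP, -0.11 for SF3 and 0.05 for the lists, moved HNRNPC to 0.57 and SNRPB to -0.60, and gave counts of 2 higher and 3 lower. Rescaling gave 0.10 for the 51 genes, 0.02 for SRSF and -0.09 for SF3. With at least 1 FPKM in both libraries, the SRSF median was 0.0049. Summing FPKM with pseudogenes gave 0.12 for the 51 genes and 0.17 for HNRNP, and moved HNRNPA1 to 1.46. These sums were not weighted by length, and the pseudogenes are shorter than their parents, so they overstate what the fragments of the copies would add. The cause of these differences was not tested. The counts past 1.5-fold over the 51 genes and over the 7 lists together were otherwise within 1.5 times their value, and no gene past 1.5-fold changed sign. Of the other genes, HNRNPA1 and HNRNPK changed sign under quantile normalization, HNRNPM under rescaling, and HNRNPK, SRSF1 and SRSF7 after subtraction for GC content.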

Other observations

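The U1 RNA genes, which encode the RNA that SNRPA and SNRPC bind, were listed at low and uneven values. RNU1-1 was at 5.17 FPKM in sh-CRNDE and listed at 0 in sh-Control, whereas RNU1-2 and RNU1-3 were listed at 0 in sh-CRNDE and at 12.2 and 11.8 FPKM in sh-Control. RNU1-4 and RNVU1-18 were also listed at 0 in sh-CRNDE, at 4.51 and 4.83 FPKM in sh-Control, so that 4 of these 6 genes were at 0 in sh-CRNDE and 1 in sh-Control. RNVU1-7 was at 8.23 and 8.67 FPKM. These are single-exon genes with near-identical copies, and the sources do not state whether the library preparation keeps such short RNAs. Their values are therefore uncertain and are not read as levels of U1 RNA.

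Of the 51 splicing factor genes, 18 overlap another listed gene in the annotation, 4 of them on the same strand and 14 on the opposite strand. HNRNPA3 overlaps NFE2L2 on the opposite strand, the gene of an oxidative stress regulator, at 11.5 FPKM in sh-CRNDE and 6.07 FPKM in sh-Control (0.83), and HNRNPUL1 overlaps TGFB1 at 5.30 and 9.28 FPKM (-0.71). The antisense gene HNRNPU-AS1 was at 4.53 and 3.61 FPKM (0.26), beside 0.36 for HNRNPU. Outside the symbol rule, U2SURP, a U2 snRNP-associated SR-related gene, was at 34.6 and 21.6 FPKM (0.65). These genes were chosen after their values were seen.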
